A study of Mus musculus with 4 samples.

Results

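Transcripts of 10 genes were followed in 3T3-L1 adipocytes, a culture with no added immune cells in its description. The genes are Marco, Msr1, Chi3l3 (now Chil3), Klra5, Cd68, Emr1 (now Adgre1), Mrc1, Csf1r, Cd14 and Lyz2. All but Klra5 are best known from macrophages and other myeloid cells. Klra5 belongs to a family best known from natural killer cells. They were found by the gene name printed for each array probe, which gave 10 of 35017 genes, 16 of 55681 probes and 25 spots per array. The genes were selected on their processed signals and background flags on these same 4 arrays, so their levels and differences are a description.

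The study used 3T3-L1 cells, a mouse embryonic fibroblast line that turns into fat-storing cells after hormonal induction, and asked whether an extract of pig testis (PT) alters adiponectin. The differentiated cells of all groups were kept for 7 days with daidzein at 25 uM plus PT at 100 ug/ml (daidzein+PT), with daidzein alone at 25 uM, with PT alone at 100 ug/ml, or with PBS as the control. Daidzein is an isoflavone of soybean. RNA of each group was read on 1 single-colour array of 60-base probes, so no test between groups was possible and the number of arrays limits the precision. One established line is the source of all groups, and the labels name no separate cultures.

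Macrophages clear particles and modified lipoproteins through scavenger and lectin receptors, of which MARCO, MSR1 and the mannose receptor MRC1 are examples. They depend on the growth factor receptor CSF1R, sense bacterial lipopolysaccharide with the help of CD14, and carry the lysosomal glycoprotein CD68 and the surface protein F4/80, the product of Emr1. In adipose tissue such transcripts usually come from resident or infiltrating macrophages, and several of them, among them Cd68, are also known from fibroblasts and preadipocytes.

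The sequences behind the 3 genes that differed by 2-fold or more are shown first. The probe stretches are the first 30 bases of the Marco probe, the last 30 of the Chi3l3 probe and the first 30 of both Klra5 probes, 5′ to 3′ and all on the minus strand of mm9, as deposited.
Marco probe: gagcccgagaggtcatcagtgtgtccccag
Chi3l3 probe: atgcttgtttcttgctctcacAATAAAttc
Klra5 brighter probe: agctgcaggagcattgGGACTGTTCTCTGG
Klra5 dimmer probe: GGACTGTTCTCTGGtatctattttgacaga
Capitals in the Chi3l3 stretch mark AATAAA, the canonical polyadenylation signal, which 10.1% of the 60-base probes held on the printed strand. Capitals in the Klra5 stretches mark the first 14 bases that both probes cover. The deposited annotation places the Marco probe at chr1:122371115-122371134, the Chi3l3 probe at chr3:105950485-105950544 and the Klra5 probes at chr6:129849145-129849204 (brighter) and chr6:129849129-129849188 (dimmer). The position given for Marco spans 20 bases, fewer than the probe. Whether a probe lies in an untranslated region was not analysed here.

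The promoters of the same 3 genes, from RefSeq on GRCm38.p6, are printed for 250 bases before to 30 bases after the annotated start, all on the minus strand. Promoter windows were examined for 6 of the 10 genes, and those of Msr1, Emr1, Csf1r and Cd14 were left out. The windows are chr1:120504995-120505274 for Marco, chr3:106167535-106167814 for Chi3l3 and chr6:129913195-129913474 for Klra5.
Marco promoter: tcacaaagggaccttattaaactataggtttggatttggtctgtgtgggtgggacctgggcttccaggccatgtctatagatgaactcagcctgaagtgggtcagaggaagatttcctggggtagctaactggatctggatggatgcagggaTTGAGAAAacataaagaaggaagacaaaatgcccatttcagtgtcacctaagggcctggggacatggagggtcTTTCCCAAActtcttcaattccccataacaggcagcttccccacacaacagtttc
Chi3l3 promoter: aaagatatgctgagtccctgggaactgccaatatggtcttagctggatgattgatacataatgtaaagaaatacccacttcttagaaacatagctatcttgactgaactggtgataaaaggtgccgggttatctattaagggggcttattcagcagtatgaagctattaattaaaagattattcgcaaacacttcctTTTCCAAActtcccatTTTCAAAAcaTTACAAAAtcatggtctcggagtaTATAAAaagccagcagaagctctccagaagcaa
Klra5 promoter: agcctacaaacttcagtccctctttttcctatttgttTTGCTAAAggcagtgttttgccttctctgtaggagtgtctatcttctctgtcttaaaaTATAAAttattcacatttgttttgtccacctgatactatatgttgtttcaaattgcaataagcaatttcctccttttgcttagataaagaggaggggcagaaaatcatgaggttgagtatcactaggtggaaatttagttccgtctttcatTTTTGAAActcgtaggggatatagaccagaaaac
Capitals mark matches on either strand to TTNNGNAA, a core of sites for the C/EBP factors, and to TATAAA, the letters of the TATA box. TTNNGNAA matched at 3 places in the Marco window, where a pair of them overlap, at 3 in Chi3l3 and at 2 in Klra5. It also matched in the windows of Cd68, Mrc1 and Lyz2 and in 39.2% of 27025 mouse promoters of this length. TATAAA matched once each in Chi3l3 and Klra5 and in 13.7% of promoters. The match began at -3 from the annotated start in Chi3l3 and at -155 in Klra5, and whether either works as a TATA box was not tested. GAGGAAGT (a strict form of the PU.1 site, in 2.84% of promoters), AGGTCA (a nuclear receptor element, 15.2%) and the PPAR response element of AGGTCA repeated after 1 base (0.0407%) matched in none of the 6 windows. Shorter or looser forms of PU.1 and ETS sites were not searched. TGANTCA (AP-1, 7.57%) matched only in that of Cd68. These are letter matches and say nothing of binding.

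The arrays read a similar share of spots. Of 59305 non-control spots per array, 49.7% to 51.4% were well above background, none was saturated, and the 75th percentile of the processed signal lay between 361 and 419. The processed signal is the spot's Cy3 brightness after background subtraction and detrending by the scanner software, which also gives an error for each spot. Each of these errors describes 1 spot and not the variation between cultures. The lowest signal well above background was 17.7 with daidzein+PT, 15.8 with daidzein, 17.9 with PT and 14.3 with PBS, and none of the negative control spots was well above background. All 4 arrays lay on 1 slide, with both PT arrays in row 2 and both arrays without PT in row 1. PT and slide row therefore cannot be told apart in any value below.

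Signal well above background was found on each of the 4 arrays for 6 of the 10 genes (Marco, Chi3l3, Klra5, Cd68, Csf1r and Cd14). It was found for Lyz2 on 3, for Mrc1 on 1, and for Msr1 and Emr1 on none. The same held on all 4 arrays for 52.4% of the 35017 genes. A gene or probe well above background is called read below. The plot of signals by array shows both kinds of gene, those whose signal differs between the arrays and those whose signal stays level.

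**Figure D1:**
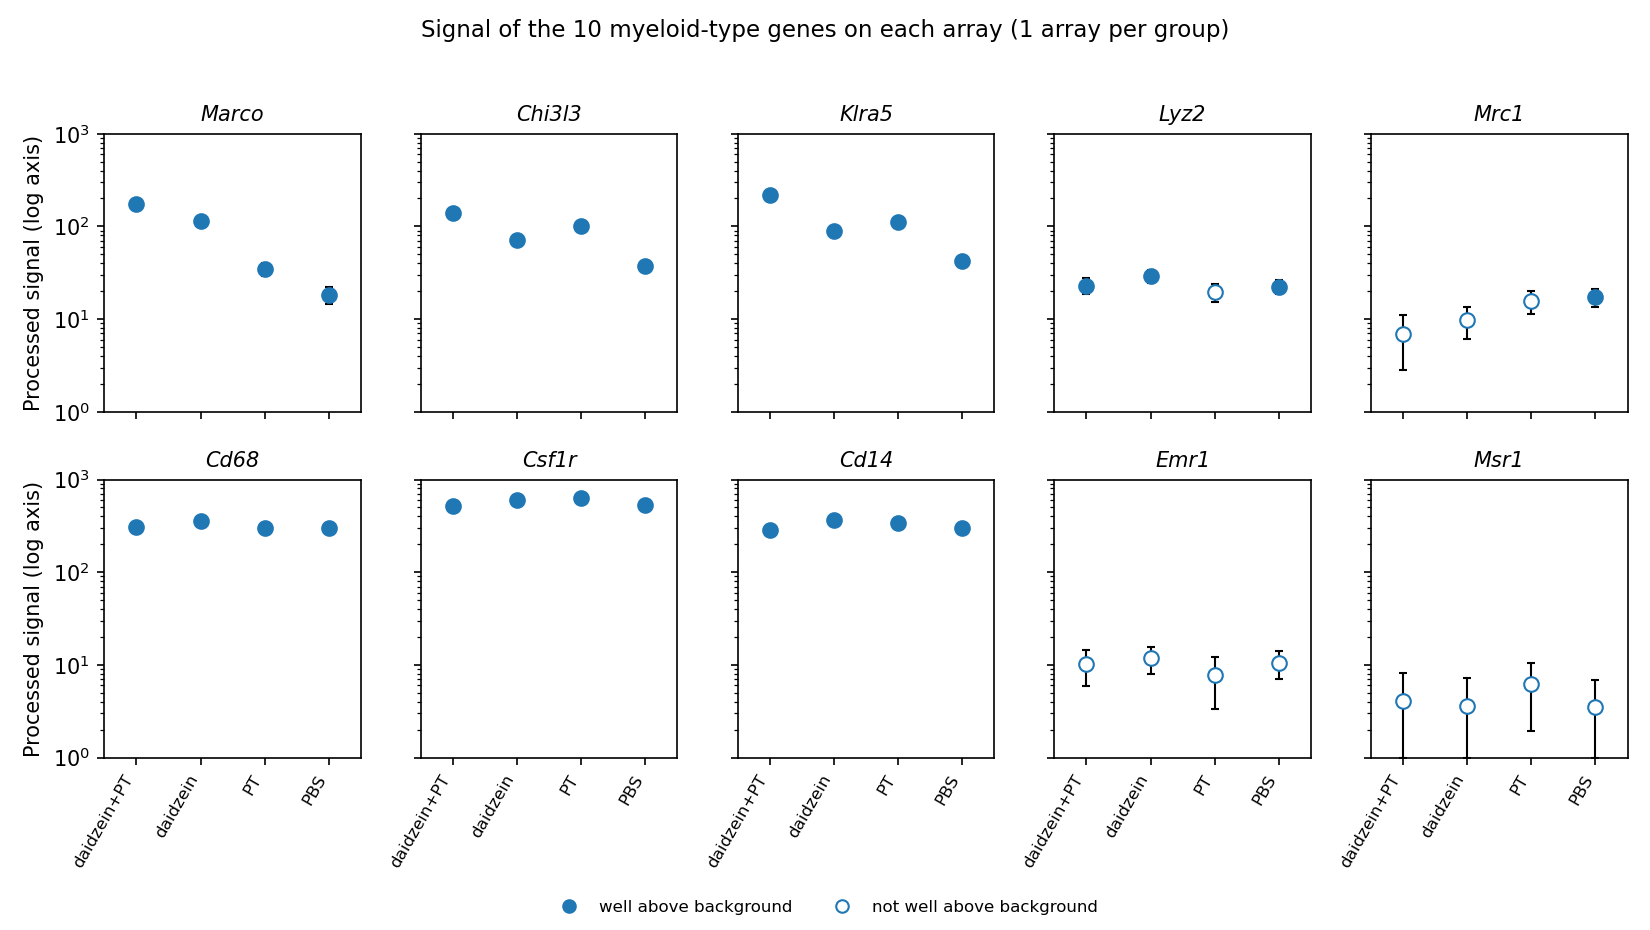
Processed signal (log axis) of the brightest probe of each of the 10 genes on the 4 arrays, 1 array per group, with the scanner software's spot error as bars. Filled points were well above background and open points were not. Marco, Chi3l3 and Klra5 have their highest signal with daidzein+PT and their lowest with PBS, and Cd68, Csf1r and Cd14 stay between 282 and 626.

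Marco, a scavenger receptor that binds bacteria and particles on macrophages, had the largest ratio of its highest to its lowest signal among the 6 genes read on all arrays. Its signal was 174 ± 17.9 with daidzein+PT, 114 ± 12.0 with daidzein, 34.9 ± 5.55 with PT and 18.4 ± 3.82 with PBS (spot error, 1 spot each). Both daidzein arrays were thus brighter than both arrays without daidzein, and with or without daidzein the array with PT was the brighter. After scaling to the 75th percentile, Marco was 9.74-fold higher with daidzein+PT than with PBS, 5.71-fold higher with daidzein than with PBS and 1.68-fold higher with PT than with PBS. It was 5.79-fold higher with daidzein+PT than with PT and 1.71-fold higher with daidzein+PT than with daidzein. The PBS value stood close to the lowest signal well above background on that array, so the folds over PBS depend on the background correction. For daidzein+PT over PBS the log2 difference was 3.28 with an error of 0.33. It was 1.51 when the raw spots were corrected by normexp, a model of signal plus background, with an offset of 50, and 2.55 with an offset of 0. With the offset of 50 daidzein over PBS was at 0.98 and PT over PBS at 0.08, against 2.51 and 0.75 as reported, so that daidzein over PBS came just under 2-fold.

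Chi3l3, which encodes Ym1, a secreted chitinase-like protein of alternatively activated macrophages, had a signal of 139 ± 14.5 with daidzein+PT, 71.2 ± 8.01 with daidzein, 101 ± 10.9 with PT and 37.7 ± 5.02 with PBS. The order differed from that of Marco in that the PT array was brighter than the daidzein array. Chi3l3 was 3.79-fold higher with daidzein+PT than with PBS, 1.73-fold higher with daidzein than with PBS and 2.37-fold higher with PT than with PBS. Daidzein+PT exceeded PT by 1.60-fold and daidzein by 2.19-fold. For daidzein+PT over PBS the log2 difference was 1.92, against 1.09 after normexp with an offset of 50. PT over PBS was at 1.24, against 0.62 with that offset, and daidzein+PT over daidzein at 1.13, against 0.78, so both came under 2-fold. Daidzein over PBS was at 0.79, against 0.31.

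Klra5 encodes a receptor of the Ly49 family, lectin-like proteins best known from natural killer cells. Its brighter probe read 219 ± 22.3 with daidzein+PT, 90.0 ± 9.64 with daidzein, 110 ± 11.7 with PT and 42.7 ± 5.31 with PBS. Daidzein and PT alone lay within 2 spot errors of each other, both above PBS and below daidzein+PT. The brighter probe was 5.28-fold higher with daidzein+PT than with PBS, 1.93-fold with daidzein over PBS, 2.28-fold with PT over PBS, 2.31-fold with daidzein+PT over PT and 2.74-fold with daidzein+PT over daidzein. For daidzein+PT over PBS the log2 difference was 2.40, against 1.46 after normexp with an offset of 50. PT over PBS was at 1.19, against 0.61 with that offset, and daidzein+PT over PT at 1.21, against 0.86, so both came under 2-fold. Daidzein over PBS was at 0.95, against 0.41.

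The dimmer Klra5 probe overlaps the brighter by 44 of its 60 bases and was printed at 10 spots per array, which gives the spread between spots of 1 sequence on 1 array. Its spots averaged 28.1 ± 2.81 with daidzein+PT (SD, 10 spots), 13.2 ± 4.32 with daidzein (9 spots), 7.38 ± 3.72 with PT (10 spots) and 7.62 ± 2.10 with PBS (8 spots), outlier spots left out. With daidzein+PT all 10 spots were well above background, with daidzein 1 spot was, and with PT and PBS none was. The groups with a reading can thus be given only as bounds, at least 2-fold for daidzein+PT over PBS, at least 1.82-fold over PT and at least 1.99-fold over daidzein. The probes disagreed on PT alone: the brighter probe was above PBS, while the spot means of the dimmer probe with PT and PBS lay within 1 SD of each other, with no spot well above background. Among 27 probes of other Klra genes the longest run of bases shared with the brighter probe was 8 and with the dimmer probe 13. Cross-hybridisation within this multigene family was not tested, and its values are uncertain to that extent.

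**Figure D2:**
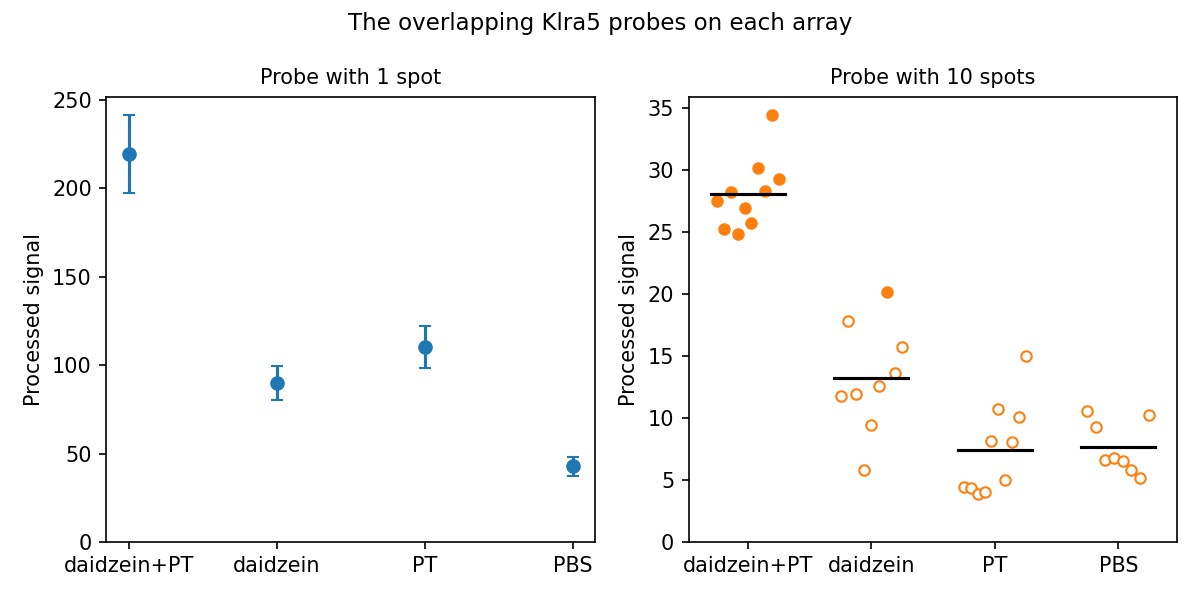
Processed signal of the overlapping Klra5 probes on the 4 arrays, on axes of different scale: left the probe with 1 spot and its spot error, right the probe with 10 spots, each point a spot (filled where well above background) and each bar the spot mean. The dimmer probe reads 28.1 with daidzein+PT and 7.62 with PBS, and its PT and PBS spots overlap.

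Cd68, Csf1r and Cd14 were read on all 4 arrays and differed little. Cd68, a lysosomal membrane protein abundant in phagocytes, read 307 ± 31.0 with daidzein+PT, 354 ± 35.6 with daidzein, 301 ± 30.4 with PT and 300 ± 30.1 with PBS at its brighter probe (chr11:69477775-69477834, mm9). Its log2 differences over PBS were 0.08 with daidzein+PT, 0.11 with daidzein and -0.17 with PT, each within the error of 0.21 of the pair of spots. The widest of its differences was for daidzein+PT over PT, 0.25 with an error of 0.21. The other Cd68 probe was not well above background on any array.

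Csf1r, the receptor for the macrophage growth factors CSF1 and IL34, read 514 with daidzein+PT, 602 with daidzein, 626 with PT and 536 with PBS at its brightest probe, with log2 differences over PBS of -0.02, 0.04 and 0.05 in that order. A second probe read 273 with daidzein+PT, 311 with daidzein, 324 with PT and 312 with PBS, and its differences over PBS lay between -0.15 and -0.12. At both probes all differences were smaller than the spot error of about 0.20. The remaining Csf1r probe was well above background with daidzein alone, at 20.0, and read 8.84 with daidzein+PT, 10.4 with PT and 9.96 with PBS, a bound of at least 1.28-fold for daidzein over PBS.

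Cd14, the co-receptor that passes lipopolysaccharide to TLR4, read 282 with daidzein+PT, 369 with daidzein, 336 with PT and 297 with PBS. The widest of its differences was for daidzein+PT over daidzein, -0.22 on the log2 scale with an error of 0.21. Cd14 over PBS differed by -0.03 with daidzein+PT, 0.19 with daidzein and 0.00 with PT.

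The remaining 4 genes were at or near background. Lyz2, the lysozyme of macrophages and granulocytes, read 23.0 with daidzein+PT, 29.0 with daidzein, 19.7 with PT and 22.4 with PBS, and was not well above background with PT. Its log2 difference was 0.08 for daidzein+PT over PBS and 0.24 for daidzein over PBS, with errors of 0.38 and 0.34. Mrc1 was well above background with PBS alone, at 17.1, and read 6.99 with daidzein+PT, 9.86 with daidzein and 15.8 with PT. The bounds were at least 1.19-fold lower with daidzein than with PBS and at least 1.08-fold lower with PT than with PBS, and no fold can be given for daidzein+PT. Msr1, a class A scavenger receptor as Marco is, stayed between 2.89 and 7.10 over its 2 probes and 4 arrays. Emr1 stayed between 3.44 and 11.9 over its 2 probes, never well above background.

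Counted over the genes well above background on both arrays of a comparison, 3 of 7 were 2-fold or more higher with daidzein+PT than with PBS (Marco, Klra5, Chi3l3), where 2.5% of 18556 genes were. With daidzein over PBS it was 1 of 7 (Marco, at 5.71-fold), where 1.1% of all genes were, and Klra5 stood just under 2-fold at 1.93. With PT over PBS it was 2 of 6 (Chi3l3, Klra5), where 0.857% of all genes were. None of the 7, 7 and 6 genes measured was 2-fold lower in these comparisons, where 0.571%, 0.368% and 0.0741% of all genes were. For daidzein+PT over PT the count was 2 of 6 (Marco, Klra5), where 2.1% of all genes were higher and 0.849% lower. For daidzein+PT over daidzein it was 2 of 7 (Klra5, Chi3l3), where 1.05% were higher and 0.113% lower. After normexp with an offset of 50 the counts were 3 for daidzein+PT over PBS, 0 for daidzein over PBS, 0 for PT over PBS, 1 for daidzein+PT over PT and 1 for daidzein+PT over daidzein. Because the genes were listed with these values known, nothing is read from their shares beside those of all genes.

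The median log2 difference of the measured genes was 0.08 for daidzein+PT over PBS, 0.24 for daidzein over PBS and 0.40 for PT over PBS, beside -0.04, -0.03 and -0.03 for all genes. Cd68, Csf1r and Cd14 are 3 of the 6 or 7 values behind each median. The comparisons share arrays and are not independent of each other.

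**Figure D3:**
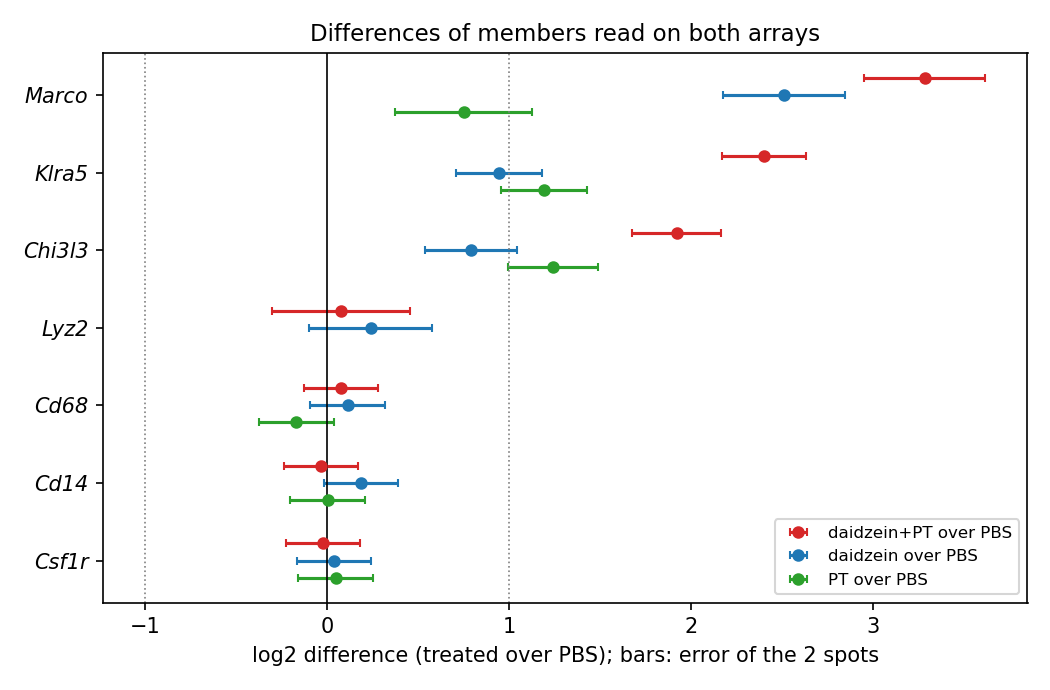
Log2 difference of each treated array over PBS for the genes well above background on both arrays (7 for daidzein+PT and for daidzein, 6 for PT, where Lyz2 has none), with the combined spot error of the 2 arrays as bars and 2-fold marked by dotted lines. Marco, Klra5 and Chi3l3 lie to the right for all 3 treatments, and Lyz2, Cd68, Cd14 and Csf1r lie between -0.17 and 0.24.

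Whether 1 treatment's difference depends on the other was taken as the daidzein+PT over PT difference minus the daidzein over PBS difference, on the log2 scale. It was 0.02 for Marco, -0.11 for Chi3l3 and 0.26 for Klra5. Over all genes of like brightness (the 6116 dimmest of 18349) this value had an SD of 0.46. After normexp with an offset of 50 the value was 0.46 for Marco, 0.16 for Chi3l3 and 0.45 for Klra5. With an offset of 0 it was 0.31 for Marco, so the Marco value depends on the background correction. For Klra5 the value depends on the probe, and with both Klra5 probes averaged it was 0.96. That average includes signals of the dimmer probe that were not well above background, since it was read on the daidzein+PT array only. It was 0.13 for Cd68, -0.11 for Csf1r and -0.22 for Cd14, where the 6116 genes of middle brightness had an SD of 0.20.

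Other transcripts that mark leukocytes were measured on the same arrays. Of 26 genes that define myeloid cells and leukocytes in general, 8 were read on all 4 arrays and 18 on none. Those on none include Ptprc (the pan-leukocyte phosphatase CD45), Spi1 (the myeloid transcription factor PU.1), Tyrobp, Laptm5, Cd53, Lcp1, Cybb, Fcgr1, C1qa, Ctss and Cx3cr1. The 8 that were read are Fcer1g, Aif1, Coro1a, Itgam, Itgb2, Ncf4, Mpeg1 and C1qb, and none of them differed by 2-fold in any of the 5 comparisons. Their median log2 difference was -0.19 for daidzein+PT over PBS, -0.10 for daidzein over PBS and -0.04 for PT over PBS. Their summed level was 2860% of the array's 75th percentile with daidzein+PT, 2754% with daidzein, 2896% with PT and 3023% with PBS, of which Itgam alone made up most. Without Itgam the other 7 summed to 121% with daidzein+PT, 146% with daidzein, 153% with PT and 155% with PBS, lowest with daidzein+PT. Itgam read 9886 with daidzein+PT, 10573 with daidzein, 11501 with PT and 10640 with PBS. Whether the probes of these genes read transcripts of leukocytes here was not tested. In a bulk sample fewer cells of a type and less RNA per cell cannot be told apart.

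Markers of mature adipocytes differed more widely. All 10 listed, among them Cd36, Slc2a4, Cfd, Cidec and the study's gene Adipoq, were 2-fold or more higher with daidzein+PT and with daidzein than with PBS, and 7 of 10 with PT than with PBS. Their median log2 difference was 3.31 for daidzein+PT over PBS, 2.51 for daidzein over PBS and 1.09 for PT over PBS, and their summed level was 113675% of the 75th percentile with daidzein+PT, 69805% with daidzein, 29829% with PT and 15826% with PBS. The order of the arrays is that of Marco. The part of adipocyte content in the differences of Marco, Chi3l3 and Klra5 was not tested. Of 8 genes of preadipocytes and fibroblasts, all read on all arrays, none differed by 2-fold, with a median of -0.32 for daidzein+PT over PBS.

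**Figure D4:**
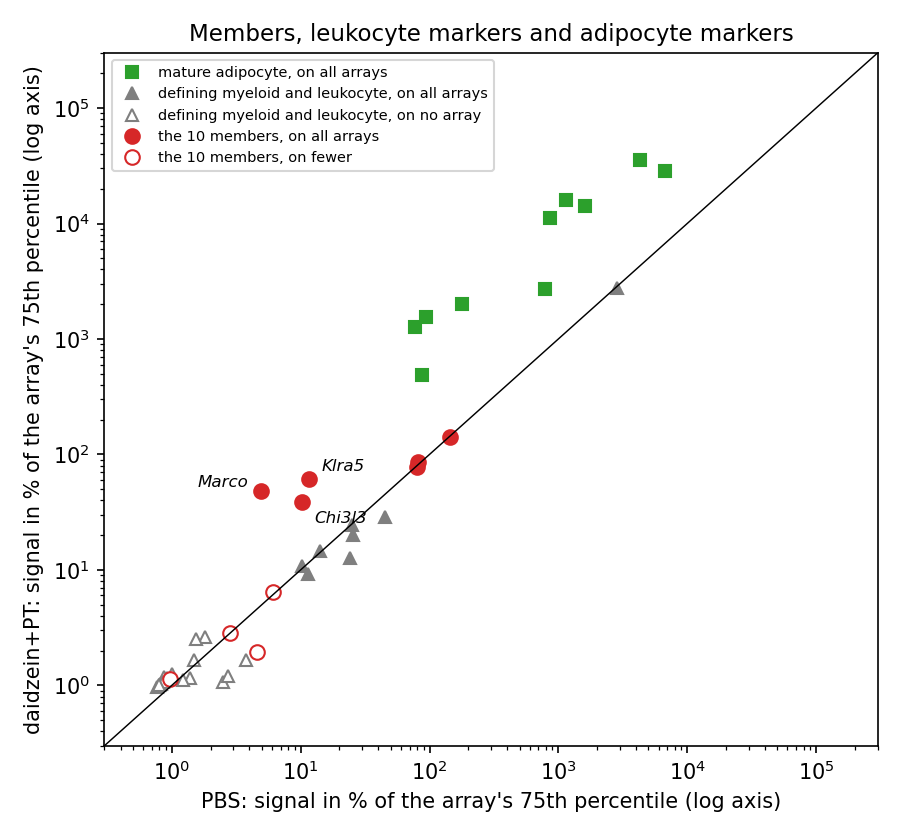
Level with daidzein+PT (y) against level with PBS (x), both as a percentage of the array's 75th percentile on log axes, for the 10 genes (red), 26 leukocyte markers (grey) and 10 adipocyte markers (green), with the line of equal levels. Filled symbols were well above background on all 4 arrays. Marco, Klra5 and Chi3l3 and all adipocyte markers lie above the line, and the 8 leukocyte markers that were read lie within 2-fold of it.

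The genes whose pattern over the 4 arrays was nearest to each of the 3 were sought among 11890 named genes read on all arrays, by the distance between log2 levels centred on the gene's own mean. Nearest to Marco were Arxes2, an adipocyte-related gene (distance 0.07), Adrb3, the beta-3 adrenergic receptor of adipocytes (0.16), and Mettl7b (0.17). Adrb3 read 148 with daidzein+PT, 95.9 with daidzein, 32.8 with PT and 17.3 with PBS. Nearest to Klra5 were Wfdc12, of a family of protease inhibitors (0.26), Camp, the antimicrobial cathelicidin (0.29), and Pdlim4 (0.35). Nearest to Chi3l3 were Cldn15, a tight junction claudin (0.43), Hcls1, an adaptor of blood cells (0.43), and Ear2, an eosinophil-associated ribonuclease (0.47), so Chi3l3 had no neighbour as near as those of Marco. Hcls1 read 151 with daidzein+PT, 117 with daidzein, 142 with PT and 49.6 with PBS, higher on all 3 treated arrays. With 4 arrays such distances describe likeness only.

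Among genes tied to alternative activation of macrophages, the state in which Chi3l3 is typical, 5 of 13 were read on both arrays for daidzein+PT over PBS. Retnla, the secreted resistin-like protein FIZZ1, and Trem2, a lipid-sensing receptor, were 2-fold or more higher and 0 were lower, with a median of 0.21. Retnla read 444 with daidzein+PT, 162 with daidzein, 29.5 with PT and 17.7 with PBS. Its log2 difference over PBS was 4.68 with daidzein+PT, 3.06 with daidzein and 0.56 with PT. The PBS value of Retnla stood close to the lowest signal well above background on that array, 14.3, so these differences depend on the background correction. Trem2 read 2103 with daidzein+PT, 1364 with daidzein, 538 with PT and 243 with PBS, in the same order of arrays. Ccl17 differed by -0.43 and Mgl2 by -0.23 for daidzein+PT over PBS. Clec10a, a macrophage lectin named after its values were seen, was not well above background with PBS and read 122 with daidzein+PT, 61.4 with daidzein and 65.7 with PT, at least 8.77-fold, 3.92-fold and 4.05-fold over PBS. Arg1 and 6 others of the list were not well above background on any array.

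Of 18 genes of classical, inflammatory activation, 5 were read on both arrays for daidzein+PT over PBS and none differed by 2-fold. Their median was -0.27 for daidzein+PT over PBS, -0.21 for daidzein over PBS and -0.30 for PT over PBS. Cd80 differed by -0.59 and the chemokine Cxcl10 by -0.50 for daidzein+PT over PBS. The cytokines Il1a and Il6, named after their values were seen, were not well above background with PBS. Il1a was well above background with daidzein+PT only, at 32.0, at least 2.29-fold over PBS. Il6 was so on the daidzein arrays only, at 25.3 with daidzein+PT and 26.0 with daidzein. Its bounds over PBS were at least 1.68-fold and 1.53-fold.

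Other scavenger receptors gave mixed values. Of 11, 7 were read on both arrays for daidzein+PT over PBS, and Cd36 and Scarb1, the receptors for fatty acids and for high-density lipoprotein, were 2-fold or more higher, at 4.06 and 1.59 on the log2 scale. Cd36 is also among the adipocyte markers above. Scarb2, a lysosomal membrane protein, differed by 0.46 and Scara5, a class A receptor, by -0.44. Olr1, the receptor for oxidised low-density lipoprotein and also named after its values were seen, was well above background on the daidzein arrays alone, at 55.0 with daidzein+PT and 39.7 with daidzein, against 7.77 with PT and 3.81 with PBS. Its bound was at least 3.94-fold for daidzein+PT over PBS and at least 2.54-fold for daidzein over PBS.

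Of 7 other chitinase-like genes, 1 was read on all 4 arrays and 1 on 3, and 5 were not well above background on any array, among them Chil4, which encodes the near relative Ym2. Chid1, read on all arrays, differed by 0.38 for daidzein+PT over PBS. The Chi3l3 probe shared a run of at most 7 bases with the 8 other chitinase-family probes. Only probes were compared with each other, not the probe with the transcripts of its relatives, so cross-hybridisation was not tested.

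Among 29 other Ly49 and NK-complex lectin genes, 6 were read on all 4 arrays and 18 on none. With daidzein+PT over PBS 1 of 6 was 2-fold or more higher, and the median was 0.78. For daidzein over PBS 2 of 6 were 2-fold or more lower, Klra22 at -1.30 and Klra16 at -1.03, and none was higher. Of 8 genes read for daidzein+PT over PT, 1 was higher, Klra9 at 2.03, and 1 lower, Klra16 at -1.14. Klra22 was named after its values were seen. Klra9, the gene above 2-fold, read 84.9 with daidzein+PT, 51.7 with daidzein, 24.1 with PT and 24.2 with PBS, so that PT alone did not stand above PBS, unlike the brighter Klra5 probe. Klra1 and Klra15 differed by 0.98 and 0.95 for daidzein+PT over PBS, and Klra16 by -0.81.

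The groups of Cd68, Csf1r and Cd14 had few genes at 2-fold. Of 20 LAMP-family and lysosomal genes, the group of Cd68, 18 were read and none differed by 2-fold in any of the 5 comparisons, with a median of -0.09 for daidzein+PT over PBS. Of 10 genes of the CSF1 axis and related receptors, 5 were read for daidzein+PT over PBS and none differed by 2-fold. The largest difference was that of Csf2rb, a subunit of cytokine receptors, at 0.72, while Csf1 and Il34, the ligands of CSF1R, differed by -0.17 and -0.13. Of 14 genes of the CD14 and TLR4 pathway, 11 were read and 1 was 2-fold lower with daidzein+PT than with PBS, Lbp, the protein that hands lipopolysaccharide to CD14. Lbp read 71.1 with daidzein+PT and 80.1 with daidzein, against 176 with PT and 156 with PBS, -1.09 over PBS on both daidzein arrays. Tlr2 differed by -0.51 for daidzein+PT over PBS. In the lysozyme family Lyz1, the close relative of Lyz2, read 65.7 with daidzein+PT, 48.6 with daidzein, 42.4 with PT and 40.2 with PBS, a difference of 0.75 for daidzein+PT over PBS. Of the mannose receptor family and macrophage lectins 2 of 11 were read for that comparison, with Mrc2 at -0.27.

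**Figure D5:**
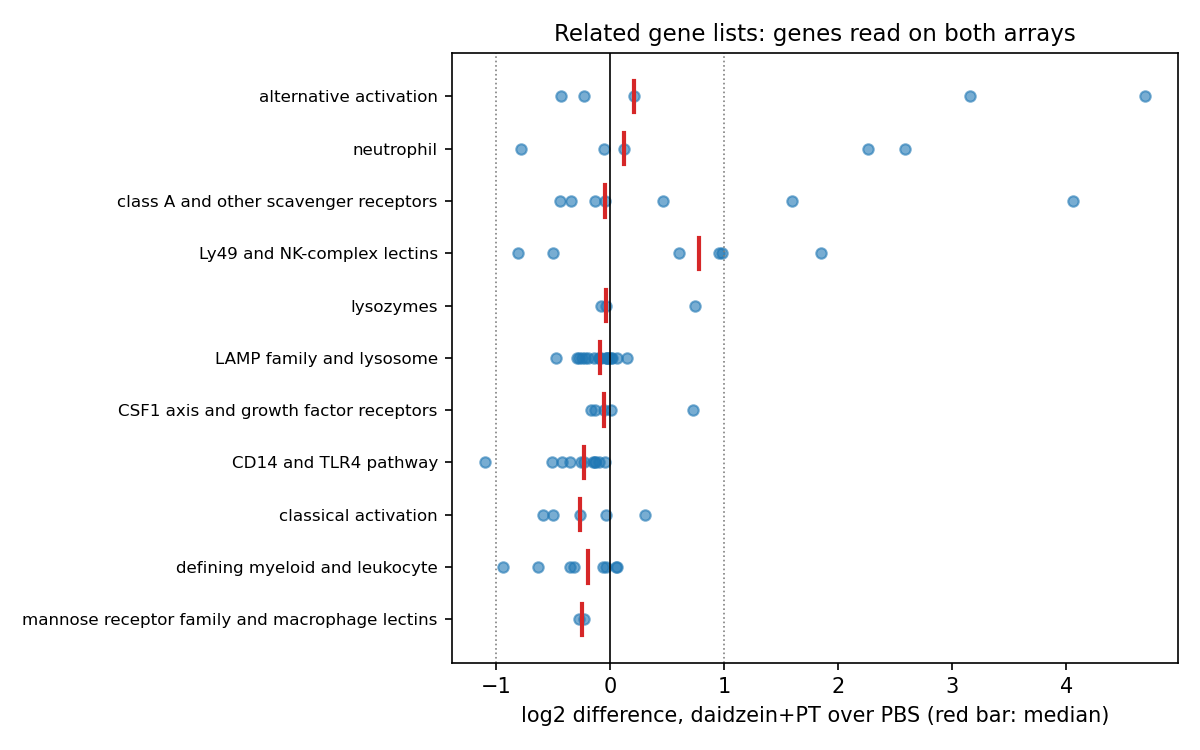
Log2 difference of daidzein+PT over PBS for the genes of 11 lists well above background on both arrays, 1 point per gene, with the list median in red and 2-fold marked by dotted lines. Retnla, Trem2, Camp, S100a8, Cd36, Scarb1 and Klra9 lie beyond 2-fold higher and Lbp beyond 2-fold lower.

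Markers of other blood cells gave mixed values. Of 8 neutrophil genes, Camp and the calcium-binding S100a8 were 2-fold or more higher with daidzein+PT than with PBS, at 2.59 and 2.26, while Ly6g and Elane differed by -0.79 and 0.12. S100a8 read 611 with daidzein+PT, 332 with daidzein, 283 with PT and 131 with PBS, whereas its usual partner S100a9 was not well above background on any array. The B cell receptor component Cd79a differed by 1.58 for daidzein+PT over PBS, and 2 of the 4 B cell genes were on no array. None of the T cell, NK cell and endothelial genes that were read differed by 2-fold for daidzein+PT over PBS.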

How the data were processed

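RNA of 4 groups of 3T3-L1 adipocytes was hybridised to 1 Cy3 array each, per the labels. The deposited scanner files give a processed spot intensity, background-subtracted and detrended by Agilent Feature Extraction, with the raw mean intensity, local background and flags, per the file headers. The headers name version 10.7.1.1, the submitters' processing notes 9.5.1.1. The deposited series table, an intensity whose columns share a median of 18.3, was used only as an alternative.

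Control and outlier spots (106 to 173 per array) were left out, the log2 signal was reduced by the array's 75th percentile, spots of a probe were averaged, and a gene was its probe with the highest mean signal. A gene entered a comparison when well above background on both arrays. Bounds use the dimmer array's own value or its lowest signal well above background, whichever is higher. RefSeq GRCm38.p6 served for names and promoters, and probe positions are those of the headers (mm9). Genes were counted at 2-fold, with no test.

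All probes of the 10 genes are named. Patterns name the 3 nearest genes, and lists at most 4 genes with the largest differences for daidzein+PT over PBS, besides Adipoq, genes named as not well above background and those said to be named after their values were seen. The genes and lists were chosen with earlier results of these data known. Differences and 2-fold counts were tested on simulated data in which every gene was well above background. The background correction, the filter, the bounds and the choice of probe were not tested there. Tools were Python 3.11.15, numpy 2.4.6, pandas 2.3.3 and limma 3.58.1 (normexp, in R 4.3.3).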

Additional observations from a re-analysis of the deposited data

Results flagged for a closer look

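Of the 10 genes, 6 were well above background on every array, which this comparison needs. For 2 of these 6 a treatment's difference had opposite signs with and without the other treatment. How often the sign changes in this way among all genes was not counted. At its brightest probe Csf1r was at 0.047 on the log2 scale for PT over PBS and -0.060 for daidzein+PT over daidzein. There it was at 0.040 for daidzein over PBS and -0.068 for daidzein+PT over PT. The second Csf1r probe read on all arrays kept its sign, at -0.12 and -0.02, and at -0.13 and -0.03, in that order. Cd14 was at 0.0046 for PT over PBS and -0.22 for daidzein+PT over daidzein, and at 0.19 for daidzein over PBS and -0.038 for daidzein+PT over PT. The change between settings was not tested, since each group has 1 array. Only the -0.22 of Cd14 exceeded the combined error of its spots (0.21).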

How the results depend on the processing

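No paired analysis was possible because each group has 1 array and the replicate numbers only name samples. With a normexp offset of 50, 2-fold counts of the 10 genes became 0 (1 as reported) for daidzein over PBS, 0 (2) for PT over PBS, 1 (2) for daidzein+PT over PT and 1 (2) for daidzein+PT over daidzein. Averaging probes gave 1 for PT over PBS, the 1.5-fold threshold gave 3 for daidzein over PBS, and no filter gave 1 gene lower for daidzein+PT over PBS. The other counts of the 10 genes stayed within 1.5 times. Of 33 differences of the 10 genes, 0 to 3 changed sign under a setting, and no scaling of filtered genes moved the median of all genes by over 0.1. Klra5 with averaged probes was at 0.43 for PT over PBS and 1.75 for daidzein+PT over PT. The dimmer probe in that average was well above background on the daidzein+PT array only. Marco was at 0.08 for PT over PBS with offset 50 and 0.38 with offset 0. The cause was not tested.

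All-gene counts, higher and lower, were as follows. Offset 50 gave 283 and 38 for daidzein+PT over PBS (464 and 106 as reported), 116 and 16 for daidzein over PBS (209 and 70), 41 and 2 for PT over PBS (162 and 14), 233 and 42 for daidzein+PT over PT (390 and 158), and 61 and 2 for daidzein+PT over daidzein (196 and 21). No filter gave 2659 and 1067, 1806 and 1158, 2185 and 903, 2057 and 1788, and 2068 and 1126 in that order of comparisons. The 1.5-fold threshold gave 1101 and 573, 595 and 459, 489 and 129, 942 and 670, and 589 and 174. Genes lower came to 37 for daidzein over PBS, 4 for PT over PBS and 7 for daidzein+PT over daidzein with offset 0. Genes lower with PT than with PBS came to 30 with quantile normalization, 9 with the percentile over probes well above background, 24 with averaged probes and 29 in the deposited table. Signal over background leaves Msr1 and Emr1 with no reading, and Mrc1 and Lyz2 with bounds in some comparisons.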

Other observations

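A few listed genes were well above background on 1 array alone. With daidzein+PT these were 5 of the 204 listed genes: Mpo at 22, Cd79b at 76.9, Klra19 at 105, Klra6 at 24.0 and the cytokine Il1a at 32.0. Against PBS their bounds were at least 1.58-fold for Mpo, 5.51-fold for Cd79b, 7.55-fold for Klra19, 1.72-fold for Klra6 and 2.29-fold for Il1a. Of all genes, 566 were well above background with daidzein+PT alone, 450 with daidzein alone, 697 with PT alone and 338 with PBS alone. The 5 genes were named after their values were seen.

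Klra8 and Klra2 were the listed Klra genes that were not well above background with PBS and were so on all 3 treated arrays. Klra8 read 88.1 with daidzein+PT, 49.0 with daidzein, 120 with PT and 12.3 with PBS, highest with PT. Klra2 read 49.8 with daidzein+PT, 33.6 with daidzein, 37.4 with PT and 13.2 with PBS. Tlr3 read 26.2 with daidzein, 119 with PT and 37.5 with PBS and was not well above background with daidzein+PT.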
